A study of Mus musculus with 6 samples.

Results

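The genes described here carry butyrate into the colonic epithelium, oxidise it, turn it into ketone bodies, gate its competition with glucose and long-chain fat, or sense it. They are Slc5a8, Slc16a1, Acads, Acat1, Bdh1, Cpt1a, Pdk4 and Ffar2. All 8 were chosen by name, matched to the symbols of the authors' deposited comparison and read from the count table. They are 8 of 46078 gene rows, and all 8 were among the 16757 genes with enough reads to be tested.

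RNA came from the cells that an EDTA and DTT wash released from the colon of mice aged 2 months, kept without challenge. The groups were 3 wild type libraries and 3 libraries of Lingo2-/- mice, called mutant here. Lingo2 encodes a membrane protein with leucine-rich repeats and an immunoglobulin domain. Strain, sex, the design of the Lingo2 allele and whether each library is 1 animal were not stated in the labels read here. The p-values therefore describe library-to-library spread alone, and that spread may be technical.

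Butyrate is made by bacteria in the colon lumen and is the main fuel of colonocytes, the absorptive cells of the colon surface. It enters with sodium or protons through monocarboxylate carriers, is activated to butyryl-CoA in mitochondria and passes through β-oxidation to acetyl-CoA. Acetyl-CoA is burned or condensed to the ketone bodies acetoacetate and β-hydroxybutyrate, and butyrate that is not burned can inhibit histone deacetylases or bind receptors at the cell surface.

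Each wild type library had 25010618 to 28029583 reads on genes, and each mutant library 7060769 to 13047682. Mitochondrial genes took 45.3% to 48.4% of these reads in wild type libraries and 35.7% to 39.8% in the mutants. Leaving them out with other dominant transcripts gave Pdk4 the same log2 fold change, 0.99. The TMM scaling used in both fits trims the most abundant genes, so this check could hardly move the value. Lingo2 itself had 0, 7 and 0 reads in wild type and 1, 1 and 0 reads in mutant replicates 1, 2 and 3, too few to check the labels. Markers of epithelial cells were plentiful in all libraries, with a summed level of 5511 to 6540.0 CPM (counts scaled to a common library size) over 13 genes in wild type, against 5814 to 6676 CPM in the mutants. Markers of T cells and intraepithelial lymphocytes summed to 487 to 575 and 201 to 234 CPM, and 14 of 14 were lower in mutant libraries, against 1.52% of all tested genes called lower. In bulk RNA such as this, fewer cells of a type and less RNA per cell cannot be told apart.

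None of the 8 genes passed edgeR's quasi-likelihood test at an adjusted p under 0.05, a threshold that 2.57% of all tested genes passed. The median log2 fold change of mutant against wild type was 0.10 over the 8 genes and 0.00098 over all tested genes, with 6 of the 8 above 0 and 2 below. At an unadjusted p under 0.05, 2 of 8 passed, Pdk4 and Slc5a8, against 18.6% of all tested genes. Only Pdk4 had CPM values that did not overlap between genotypes, 1 of 8 against 24.1% of all tested genes. DESeq2's Wald test called 1 of the 8, Pdk4, against 4.29% of the genes to which it gave an adjusted p, and limma voom with sample weights called 0, against 2.55% of all tested genes. The counts behind these values ran from 97 reads, for Ffar2 in mutant replicate 2, to 4449 reads, for Slc16a1 in wild type replicate 1.

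**Figure D1:**
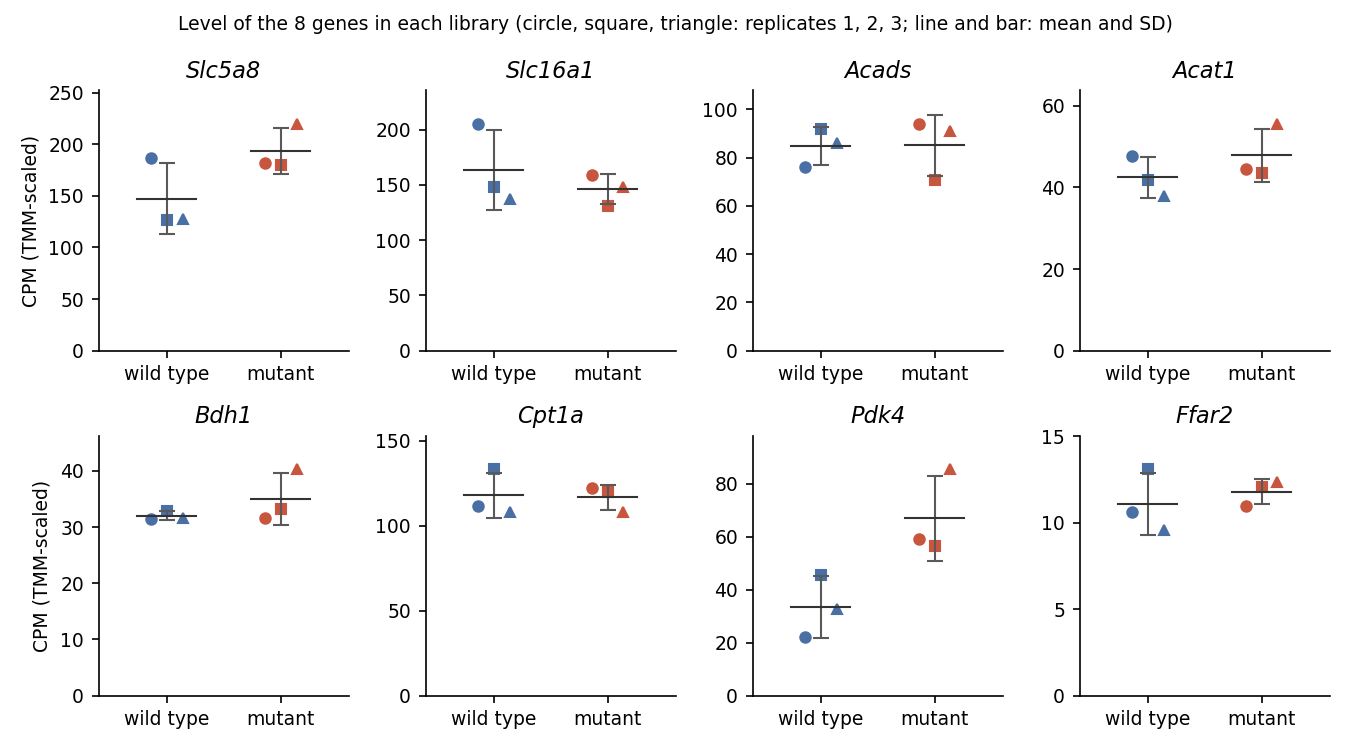
Level of each of the 8 genes in each library, in CPM on a linear axis that starts at 0; circles, squares and triangles are replicates 1, 2 and 3, the line is the mean and the bar the SD (n = 3). The 3 mutant libraries lie above the 3 wild type libraries for Pdk4, and the groups overlap for the other 7 genes.

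Both carriers of butyrate were abundant, and neither passed the test. Slc5a8 (chromosome 10, 88885992 to 88929515, plus strand, GRCm38) encodes a sodium-coupled monocarboxylate transporter of the apical membrane of colonocytes. It stood at 187, 127 and 127 CPM in wild type replicates 1, 2 and 3 and at 182, 179.9 and 219 CPM in mutant replicates 1, 2 and 3. Wild type replicate 1 was level with the mutant libraries, and the other 2 wild type libraries lay below all of them. The means were 147 ± 34.4 and 194 ± 22.1 CPM (SD, n = 3), a log2 fold change of 0.40 ± 0.16 (SE; 95% interval 0.05 to 0.74; edgeR unadjusted p = 0.0284, adjusted p = 0.207). Without wild type replicate 1 the value was 0.60 (edgeR adjusted p = 0.0238, where 2.05% of all tested genes passed). With no filter on low counts it was 0.38 and also passed (edgeR adjusted p = 0.0121, where 5.18% passed).

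Slc16a1 (chromosome 3, 104638668 to 104658462, plus strand) encodes MCT1, a proton-coupled carrier of lactate, butyrate and ketone bodies. Its levels were 205, 148 and 137 CPM across the wild type replicates, against 159, 131 and 148 CPM across the mutant replicates. Wild type replicate 1 was again the highest of its group, and the groups overlapped. The means were 163 ± 36.2 and 146 ± 13.8 CPM (SD, n = 3; log2 fold change −0.16 ± 0.15, 95% interval −0.48 to 0.16, edgeR adjusted p = 0.594). Without wild type replicate 1 the fitted value was 0.032, so its direction rested on that library. GENCODE places Gm43581 and Gm43585 within an intron on the same strand, with at most 177 and 78 reads in any library.

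The proportion of the 2 carriers was also read within each library. The ratio of Slc5a8 to Slc16a1, in CPM per kilobase of exon, was 0.758, 0.710 and 0.771 in wild type replicates 1, 2 and 3 and 0.953, 1.14 and 1.23 in mutant replicates 1, 2 and 3. The groups did not overlap, and the high level of both genes in wild type replicate 1 cancelled out. The mean ratio was 0.746 ± 0.0318 in wild type and 1.11 ± 0.14 in the mutants (SD, n = 3), a difference of 0.56 on the log2 scale (two-sided exact permutation p = 0.1, the smallest that 3 against 3 allows). This ratio does not depend on how libraries are scaled, and its difference ranged from 0.48 to 0.66 when any 1 library was left out. The ratio was chosen after the values were seen. Its lack of overlap, its p and its leave-one-out range come from those same values and are not separate support. Of 28 pairs among the 8 genes, 8 had ratios that did not overlap between genotypes, 6 with Pdk4 and 2 with Slc5a8 (against Slc16a1 and Acat1). Ratios to Slc16a1 did not overlap for 12.9% of all other tested genes, and ratios to Slc5a8 for 29.8%. No such share was computed for ratios to Pdk4. The CPM values of Pdk4 alone already did not overlap, so its 6 pairs are not a separate result. Markers of surface colonocytes, the cells that carry Slc5a8, summed to 12619 to 16055 CPM in wild type against 9806 to 12909.9 CPM in the mutants; of these 15 genes 0 were called and 13 lay below 0; their part in the ratio was not tested.

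**Figure D2:**
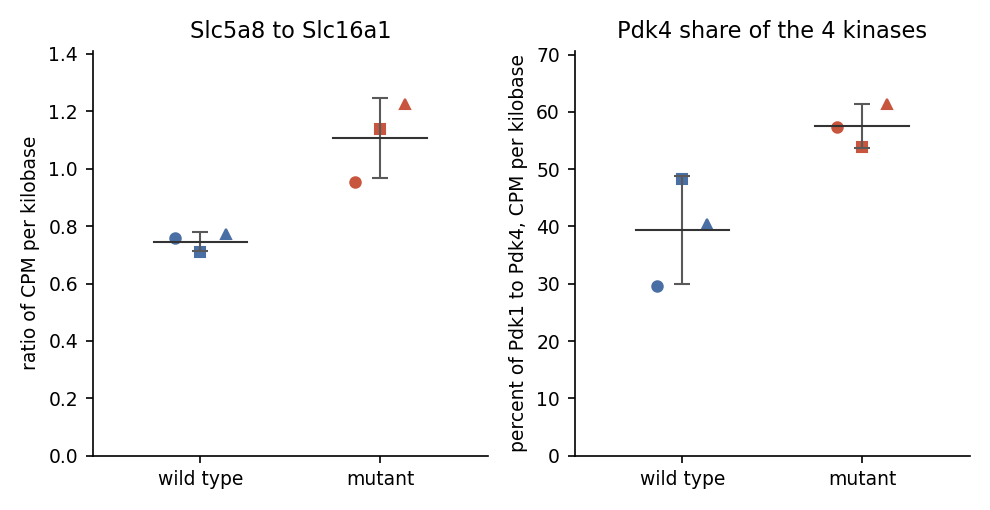
Left, ratio of Slc5a8 to Slc16a1 in CPM per kilobase in each library; right, share of Pdk4 in the summed CPM per kilobase of Pdk1, Pdk2, Pdk3 and Pdk4, in percent. Symbols are replicates, lines means and bars SDs (n = 3); the ratio stays at or under 0.771 in wild type and at or over 0.953 in mutant libraries, and the share at or under 48.3% and at or over 53.8%.

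Other carriers and their partners were measured beside them. Of the 14 tested genes in a list of acid carriers and their partners, 1 was called, against 2.57% of all tested genes. The gene called was Emb, which encodes embigin, a membrane chaperone of monocarboxylate carriers also known from blood-forming cells. Emb was at 8.69, 9.55 and 10.2 CPM across the wild type replicates, against 4.69, 2.87 and 3.01 CPM across the mutant replicates, so it fell by 1.38 ± 0.20 on the log2 scale (edgeR adjusted p = 0.00313). It passed in all 15 alternative analyses. The summed lymphocyte markers, given above, moved in the same direction, and their part in the fall of Emb was not tested. Basigin (Bsg), the chaperone that MCT1 needs to reach the membrane in epithelium, was far more abundant. In wild type and mutant libraries it was at 128 and 133 CPM per kilobase, against 1.37 and 0.51 for Emb. Abcg2, an efflux pump of the apical membrane, was at 131 ± 10.7 and 102 ± 2.51 CPM, with no overlap between the groups (log2 fold change −0.36 ± 0.09, edgeR adjusted p = 0.0659). In this list 3 of 14 tested genes did not overlap, against 24.1% of all tested genes. These were Emb, Abcg2 and Slc16a4, all lower in the mutants. Abcg2 passed with DESeq2 (adjusted p = 0.0494) and with no low count filter (edgeR adjusted p = 0.0104). The list median was 0.01.

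The enzymes that oxidise butyrate did not pass the test. Acads (chromosome 5, 115110299 to 115119346, minus strand) encodes the short-chain acyl-CoA dehydrogenase, which takes the first oxidation step of butyryl-CoA. It was at 76.3, 91.7 and 86.2 CPM across the wild type replicates, against 93.8, 70.5 and 91.2 CPM across the mutant replicates 1, 2 and 3. The lowest and the highest library were both mutant. The means of 84.7 ± 7.82 and 85.2 ± 12.7 CPM gave a log2 fold change of 0.01 ± 0.12, with a 95% interval of −0.25 to 0.27 (edgeR adjusted p = 0.974). The sign of so small a value changed in 6 of 15 alternative analyses.

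Acat1 (chromosome 9, 53580522 to 53610382, minus strand) encodes the mitochondrial acetoacetyl-CoA thiolase, which splits acetoacetyl-CoA at the end of butyrate oxidation and can run backwards towards ketone bodies. Its levels were 47.6, 41.9 and 37.8 CPM across the wild type replicates, against 44.5, 43.6 and 55.4 CPM across the mutant replicates. Mutant replicate 3 was the highest library and the other 2 lay within the wild type range. The log2 fold change was 0.17 ± 0.12 (95% interval −0.09 to 0.43, edgeR adjusted p = 0.465), and it was 0.048 without mutant replicate 3.

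Of the 14 tested genes for the activation and oxidation of short-chain acyl-CoA, Acads and Acat1 among them, 0 were called, and the list median was 0.02. The smallest p belonged to Acsm3, a mitochondrial acyl-CoA synthetase that accepts short and medium chains. Acsm3 was at 32.8, 23.8 and 25.6 CPM across the wild type replicates, against 42.4, 31.8 and 47.5 CPM across the mutant replicates, so only mutant replicate 2 fell within the wild type range. Its log2 fold change was 0.57 ± 0.16 (edgeR adjusted p = 0.101), and it passed with DESeq2 (adjusted p = 0.0362), with no filter on low counts and without wild type replicate 1. Acss1, a mitochondrial acetyl-CoA synthetase, followed at 0.15 ± 0.09 (edgeR adjusted p = 0.421), and at 0.082 without wild type replicate 1.

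Bdh1 (chromosome 16, 31422280 to 31458901, plus strand) encodes the mitochondrial dehydrogenase that interconverts acetoacetate and β-hydroxybutyrate. It was at 31.5, 32.9 and 31.7 CPM across the wild type replicates, against 31.6, 33.2 and 40.3 CPM across the mutant replicates. The wild type libraries were nearly level, and mutant replicate 3 alone stood higher. The log2 fold change was 0.12 ± 0.11 (95% interval −0.10 to 0.35, edgeR adjusted p = 0.562), and it was 0.0067 without mutant replicate 3. The annotated antisense gene Gm15743 overlaps Bdh1 and had at most 13 reads in any library, against at least 266 for Bdh1.

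Across ketone body synthesis and use, 9 of 11 listed genes were tested, 0 were called and the median was 0.04. Oxct1, the enzyme that reactivates ketone bodies for burning, stood at 29.7 CPM per kilobase in wild type and 28.8 in mutant libraries, above Bdh1 at 8.23 and 9.0. Acat1 and Hmgcs1, an enzyme of sterol synthesis (−0.18 ± 0.13, edgeR adjusted p = 0.492), had the smallest p-values of the list. Without wild type replicate 1 the value of Hmgcs1 was −0.017.

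Cpt1a (chromosome 19, 3322334 to 3385733, plus strand) encodes the liver form of carnitine palmitoyltransferase 1, the gate by which long-chain fatty acids enter mitochondria; butyrate does not need it. It was among the steadiest of the 8, at 112, 133 and 108 CPM across the wild type replicates, against 122, 119.7 and 108 CPM across the mutant replicates. The groups overlapped. Means were 118 ± 13.4 and 117 ± 7.47 CPM (log2 fold change −0.014 ± 0.10, 95% interval −0.24 to 0.21, edgeR adjusted p = 0.959). Cpt1a made up 96.3% to 96.9% (wild type) and 96.0% to 97.5% (mutant) of the length-scaled level of the 3 Cpt1 genes. In the list of the carnitine shuttle and long-chain oxidation 18 genes were tested, 0 were called and the median was 0.05. The smallest p-values there belonged to Eci2, an enoyl-CoA isomerase (0.31 ± 0.11, edgeR adjusted p = 0.146), and Acsl5, a long-chain acyl-CoA synthetase (0.33 ± 0.12, edgeR adjusted p = 0.176), which was 0.19 without mutant replicate 2.

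Pdk4 had the largest log2 fold change of the 8 genes, and whether it passed depended on the tool. Pdk4 (chromosome 6, 5483351 to 5496309, minus strand) encodes pyruvate dehydrogenase kinase 4, which switches off pyruvate dehydrogenase and so spares glucose when fat or other acids are burned. It was at 22.3, 45.7 and 32.5 CPM in wild type replicates 1, 2 and 3 and at 59.0, 56.3 and 85.4 CPM in mutant replicates 1, 2 and 3. Every mutant library was above every wild type library, and the wild type libraries themselves differed 2.05-fold. The means were 33.5 ± 11.7 and 66.9 ± 16.0 CPM (SD, n = 3), a ratio of 2.00 and a log2 fold change of 0.99 ± 0.31 (95% interval 0.22 to 1.76). In edgeR this did not pass (unadjusted p = 0.0203, adjusted p = 0.177).

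The tools gave Pdk4 nearly the same fold change and different p-values. DESeq2's Wald test gave 0.996 ± 0.22 with an adjusted p of 0.000525, and limma voom gave 0.93 ± 0.30 with an adjusted p of 0.187. The authors' deposited table gives a log2 fold change of 1.00 with a standard error of 0.22 and an adjusted p of 0.000441. The authors' deposited table called 4.71% of the genes to which it gives an adjusted p, and the smallest adjusted p of the other 7 genes was 0.148, for Slc5a8. edgeR assigned Pdk4 a quasi-likelihood dispersion, its measure of spread beyond the fitted trend, of 5.10, against 0.553 to 1.33 for the other 7 genes. With its robust setting edgeR judged Pdk4 on 5.52 degrees of freedom, against a median of 11.9 over all tested genes, and with that setting off the adjusted p was 0.0626. Pdk4 stayed above 0 in all 15 alternative analyses, from 0.77 without wild type replicate 1 to 1.28 without wild type replicate 2, and edgeR called it in none of them.

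**Figure D3:**
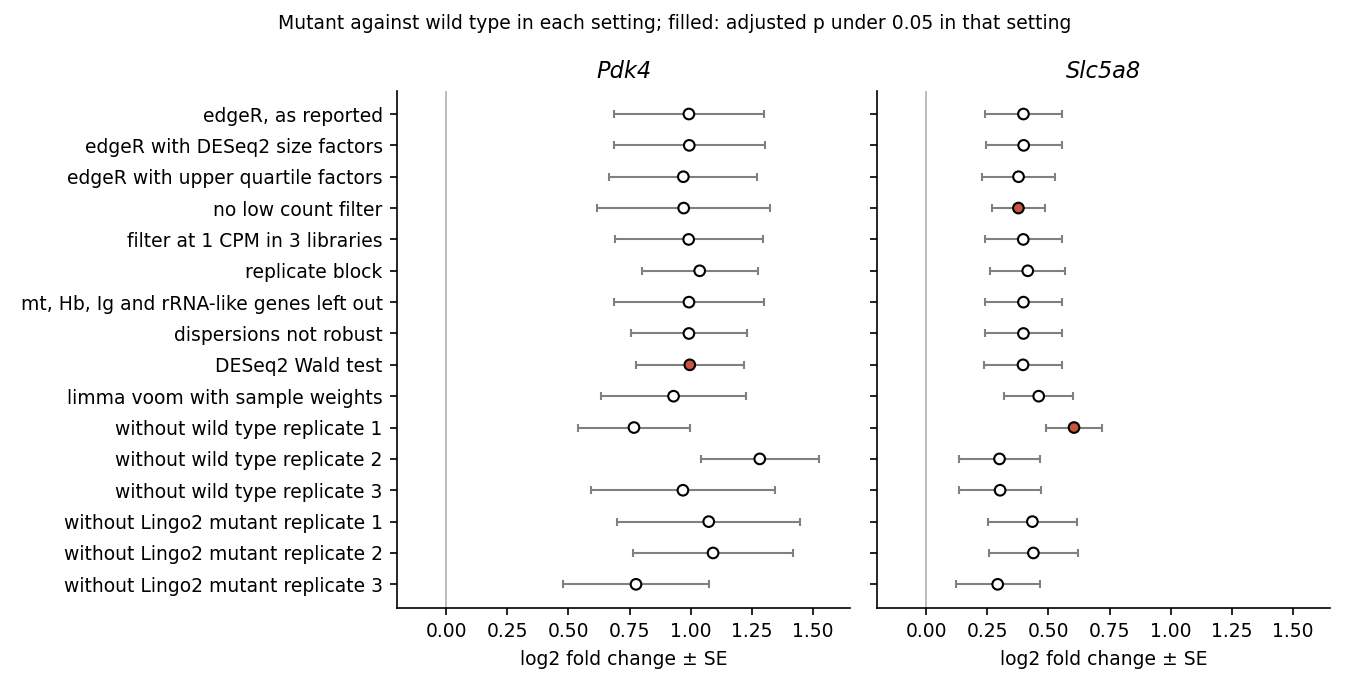
Log2 fold change of mutant against wild type with its SE for Pdk4 (left) and Slc5a8 (right) in the reported edgeR analysis and each of 15 alternatives; filled points had an adjusted p under 0.05. Pdk4 lies between 0.77 and 1.28 and is filled with DESeq2 alone, and Slc5a8 lies between 0.29 and 0.60 and is filled with no low count filter and without wild type replicate 1.

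The other 3 pyruvate dehydrogenase kinases had lower mean levels than Pdk4 in both genotypes. Pdk1, Pdk2 and Pdk3 stood at 4.14, 5.62 and 4.47 CPM per kilobase in wild type and 3.94, 5.59 and 4.32 in mutant libraries, against 9.54 and 19.1 for Pdk4. Pdk4 held 29.6%, 48.3% and 40.4% of the summed length-scaled level of the 4 kinases in wild type replicates 1, 2 and 3 and 57.3%, 53.8% and 61.5% in mutant replicates 1, 2 and 3. The groups did not overlap (two-sided exact permutation p = 0.1, the smallest possible). This share was computed after the values of Pdk4 were seen. The CPM values of Pdk4 alone already did not overlap, so the share is not a separate result. Among the 16 tested genes of the pyruvate dehydrogenase complex, its kinases, phosphatases and pyruvate supply, 0 were called and the median was −0.06. Dlat, the acetyltransferase core of the complex, had the smallest p after Pdk4 (0.23 ± 0.10, edgeR adjusted p = 0.265).

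Pdk4 and Cpt1a are textbook targets of the fatty acid receptor PPARα, so a list of PPAR receptors, coactivators and targets was read as a group. Of 18 tested genes 0 were called and the median was −0.02. The smallest p-values were those of 2 receptors that lay below 0, Rxra, the common partner of PPARs (58.9, 58.3 and 56.9 against 50.9, 44.0 and 46.5 CPM; −0.30 ± 0.09, edgeR adjusted p = 0.101), and Ppard (−0.25 ± 0.09, edgeR adjusted p = 0.170). Of the 18 genes, 5 did not overlap between the groups, against 24.1% of all tested genes: Rxra and Ppard lower in the mutants, and Pdk4, Angptl4 and Fabp1 higher. Angptl4, a secreted lipase inhibitor, was low in all libraries, at 2.92 ± 1.4 CPM for wild type and 5.02 ± 0.560 CPM for the mutants (0.77 ± 0.32, edgeR adjusted p = 0.236). The value of Angptl4 ran from 0.46, with wild type replicate 3 left out, to 1.18, with wild type replicate 2 left out, and it passed with no low count filter (edgeR adjusted p = 0.0256). The fatty acid binding protein gene Fabp1 was at 7.87, 9.02 and 14.8 CPM across the wild type replicates, against 17.7, 53.5 and 23.5 CPM across the mutant replicates (1.55 ± 0.53, edgeR adjusted p = 0.228). Without mutant replicate 2 the value of Fabp1 was 0.94. Summed markers of small intestine epithelium, a site of high Fabp1, were at 436 to 601 and 579 to 896 CPM over 14 genes, highest in mutant replicate 2 as Fabp1 was. Of these markers 13 of 14 lay above 0, against 50.1% of all tested genes, with a median of 1.03. Of the 14, 1 was called higher, against 175 of all 16757 tested genes. The part of these markers in the level of Fabp1 was not tested.

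**Figure D4:**
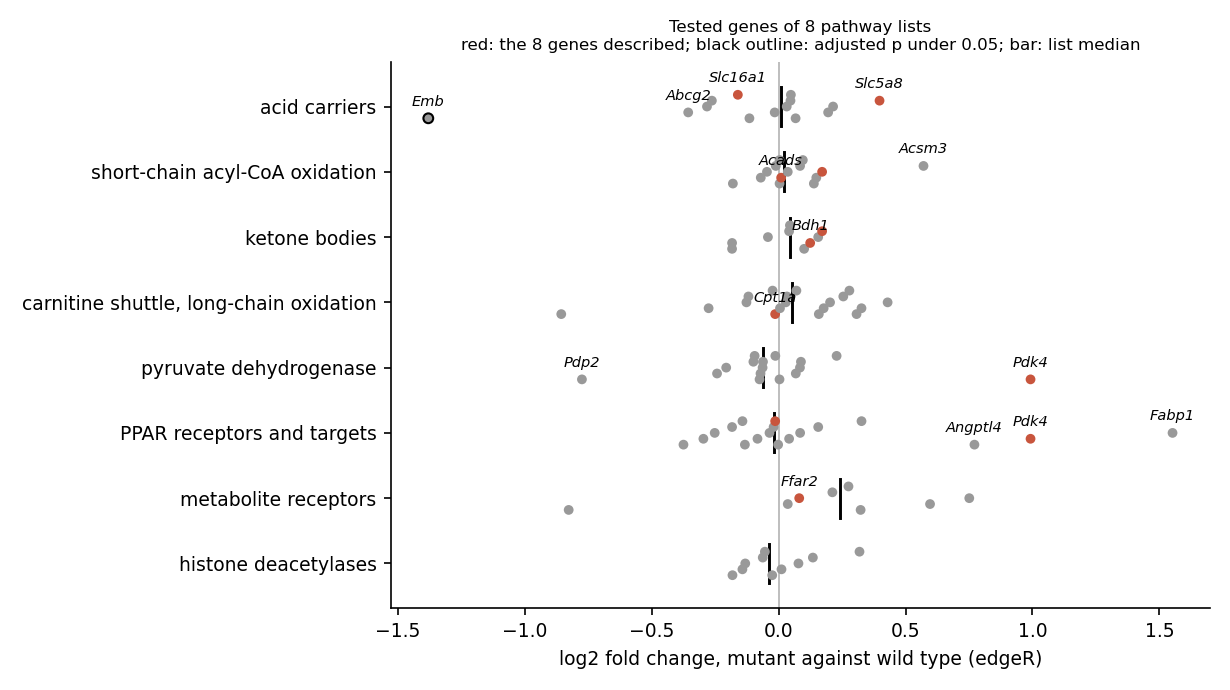
Log2 fold change of mutant against wild type for the tested genes of 8 pathway lists (rows); red points are the 8 genes described, a black outline marks an adjusted p under 0.05 and the bar is the list median. Emb at −1.38 is the only outlined point, and list medians lie between −0.06 and 0.24.

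Ffar2 (chromosome 7, 30818348 to 30823775, minus strand) encodes GPR43, a G protein-coupled receptor of acetate, propionate and butyrate found on epithelial and enteroendocrine cells and on neutrophils. It was the least abundant of the 8, at 10.6, 13.1 and 9.58 CPM across the wild type replicates, against 11.0, 12.1 and 12.4 CPM across the mutant replicates. All 3 mutant libraries lay within the wild type range. The means were 11.1 ± 1.80 and 11.8 ± 0.748 CPM (log2 fold change 0.08 ± 0.14, 95% interval −0.23 to 0.40, edgeR adjusted p = 0.802). Of 12 listed markers of neutrophils and other granulocytes, 2 had 0 reads in every library, Mpo and Elane, and 6 had enough reads to be tested. Summed granulocyte markers ran from 36.0 to 88.2 CPM in wild type against 22.7 to 43.3 CPM in the mutants, most of it Ly6g. Of the 6 tested, 0 were called and 5 lay below 0, with a median of −0.54. Enteroendocrine markers summed to 436 to 578 CPM in wild type and 313 to 505 CPM in the mutants. Of 11 tested genes 10 lay below 0, with a median of −0.34. The 1 called lower in mutant libraries was Gcg, which encodes proglucagon, against 1.52% of all tested genes called lower. The part of either cell type in the level of Ffar2 was not tested.

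Ffar2 held 35.7% to 42.7% of the length-scaled level of the free fatty acid receptors Ffar1 to Ffar4 in wild type against 31.5% to 38.4% in the mutants, with overlap. Ffar4, a receptor of long-chain fatty acids, held most of the rest, at 5.83 and 7.24 CPM per kilobase against 3.98 and 4.23 for Ffar2. Ffar4 (0.32 ± 0.15, edgeR adjusted p = 0.276) and Gpr35, a receptor with the tryptophan metabolite kynurenic acid among its proposed ligands (0.28 ± 0.12, edgeR adjusted p = 0.229), had the smallest p-values of the receptor list. Of 8 tested receptors 0 were called and the median was 0.24. Hcar2, a receptor of β-hydroxybutyrate and butyrate, was below the filter, at 0.429 ± 0.179 CPM for wild type and 0.325 ± 0.261 CPM for the mutants. Among class I and II histone deacetylases, several of which butyrate inhibits, 10 genes were tested, 0 were called and the median was −0.04. There the smallest p-values were those of Hdac10, a class IIb enzyme that butyrate is not known to inhibit (0.32 ± 0.17, edgeR adjusted p = 0.338; 0.15 without mutant replicate 1), and Hdac5 (−0.18 ± 0.10, edgeR adjusted p = 0.371).

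Ordered by length-scaled level, in CPM per kilobase, wild type libraries held Acads (37.3 ± 3.45), Slc16a1 (36.9 ± 8.17), Slc5a8 (27.6 ± 6.46), Cpt1a (15.4 ± 1.75), Acat1 (11.3 ± 1.31), Pdk4 (9.54 ± 3.34), Bdh1 (8.23 ± 0.198) and Ffar2 (3.98 ± 0.645). The ranges of Acads, Slc16a1 and Slc5a8 overlapped from each to the next, as did those of Acat1, Pdk4 and Bdh1, and the other neighbours were apart. In mutant libraries the order was Acads, Slc5a8, Slc16a1, Pdk4, Cpt1a, Acat1, Bdh1 and Ffar2. There the ranges of Acads and Slc5a8, of Slc5a8 and Slc16a1, and of Cpt1a and Acat1 overlapped, so the ranges of the 2 carriers overlapped in both genotypes. Pdk4 at 19.1 ± 4.57 narrowly missed overlapping Cpt1a at 15.3 ± 0.977, with the lowest library of Pdk4 at 16.05 and the highest of Cpt1a at 15.99.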

How the data were processed

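The deposited table of whole-number read counts per gene was used as the authors gave it after removing the summary lines; the line for alignments outside every feature held 18.5% to 22.1% (wild type) and 23.6% to 27.6% (mutant). Trimmomatic 0.39, STAR, HTSeq, DESeq2 and the build GRCm38 are named, per the submitters' processing notes; for the annotation release and strand setting, nothing is given in the sources used here. The authors' deposited comparison holds a normalized signal per library, log2 fold changes with standard errors, a test score and p-values.

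The test was that of edgeR 4.0.16 (R 4.3.3; filterByExpr, TMM factors, robust dispersions, quasi-likelihood F test), adjusted by Benjamini-Hochberg over 16757 genes. SEs were derived from the log2 fold change and F, and 95% intervals from the model's degrees of freedom. DESeq2 1.42.0 and limma 3.58.1 were alternatives. Symbols, positions and exon lengths came from GENCODE M21. On simulated counts for this comparison over 16757 genes the script recovered 68% of 100 genes changed 2-fold and 88% of 100 changed 4-fold, with 27 false calls, a larger share of calls than 0.05.

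The members and gene lists were chosen with earlier results of these data known. Named were the 8 genes, called genes of each pathway list or else the 2 with the smallest p, and, for likeness, the 2 genes nearest to each member. Other named genes and the ratios within a library were chosen after their values were seen. No 2 libraries agreed within sampling noise (chi-square per degree of freedom at least 8.40). Values of 1 listed gene are not reported here.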

Additional observations from a re-analysis of the deposited data

How the results depend on the processing

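Over 15 alternatives, 6 of them leaving out 1 library, Pdk4, Slc5a8, Acat1 and Bdh1 kept their direction. edgeR called 430 genes as reported, 1493 with no low count filter and 174 to 674 with 1 library left out (674 without wild type replicate 3, 174 and 180 without mutant replicates 2 and 3); DESeq2 called 656. The number of the 8 genes called was 1 with no low count filter (Slc5a8, 0.38), 1 with DESeq2 (Pdk4, 0.996) and 0 to 1 with a library left out, the 1 being Slc5a8 without wild type replicate 1. In those 3 settings 5.18%, 4.29% and 2.05% of all genes given an adjusted p were called. With a library left out the log2 fold change ran from 0.29 to 0.60 for Slc5a8 and from 0.77 to 1.28 for Pdk4. Values near 0 changed sign: Acads was −0.011 with upper quartile factors, −0.011 with no filter and −0.036 with limma voom, and −0.073 to 0.12 with a library left out. The same ranges were −0.27 to 0.032 for Slc16a1, −0.072 to 0.082 for Cpt1a and −0.018 to 0.22 for Ffar2; the cause was not tested. Upper quartile factors took the share of called genes that were higher from 40.7% to 35.2%. Deviations of libraries with the same number correlated at −0.13, 0.13 and −0.02, and only replicate 2 correlated best with its own number. So few libraries cannot decide whether the numbers pair the samples. With a replicate block edgeR called 360 genes and none of the 8. Pdk4 was then at 1.04 (edgeR adjusted p = 0.104) and Slc5a8 at 0.42 (edgeR adjusted p = 0.209). With 3 libraries a group and fewer reads in the mutants, the 95% intervals set what could be seen.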

Other observations

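The summed level of the 11 listed metabolite receptors was 41.8 to 45.7 CPM in wild type libraries and 47.7 to 53.8 CPM in the mutants, without overlap. Of the 8 tested receptors 0 were called by edgeR, and 2 did not overlap between the groups, against 24.1% of all tested genes. The sum over the receptors was read after the values were seen and was not tested.

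The genes whose pattern over the 6 libraries lay nearest to each gene, by root mean square distance of centred log2 CPM among 13010 candidates, were found by rule. For Slc5a8 they were Pigr, the epithelial receptor that carries IgA to the lumen (0.058), and Gfer (0.070). For Slc16a1 they were Ncoa4 (0.056) and B4galt1 (0.058). The nearest genes to Pdk4 were farther off, Siglecg at 0.13 and Cacna1i at 0.19. This distance is not scaled to a gene's own range, which was widest for Pdk4 among the 8, so it does not show a rarer pattern. The nearest genes were Trim37 and Smim6 for Acads, Cmas and Zfp260 for Acat1, Pigq and Galnt10 for Bdh1, Xylt2 and Zfp281 for Cpt1a, and Cep55 and Grhpr for Ffar2, all at 0.026 to 0.044. Among the 8 genes themselves Acat1 and Bdh1 were nearest to each other (0.11), and Slc16a1 and Pdk4 farthest apart (0.76).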
